A study of Mus musculus with 10 samples.

Results

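Described here are 10 immediate-early genes: the EGR zinc finger factors Egr1, Egr2 and Egr3, the NR4A orphan nuclear receptors Nr4a1, Nr4a2 and Nr4a3, the activity-induced genes Npas4 and Arc, and the immediate early response genes Ier2 and Ier3, measured in NIH3T3, a mouse embryo fibroblast line. They were chosen by symbol from the 14849 rows of the table that name a gene, with earlier results of these libraries known, in which several of them were lower in the clones than in the controls. The differences between clones and controls are therefore given as a description. Of the 10 genes, 9 have a row of their own and Nr4a3 was not analysed here. Egr1 has a second, lower row under the same gene ID, and the row with the higher mean was used.

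There were 10 libraries of total RNA: 1 of parental cells and 1 of cells stably overexpressing the vector, beside those of the constructs. For the constructs there were 4 of cells stably overexpressing the forkhead factor FOXP2 and 4 of cells stably overexpressing FOXP2-CPED1. Parental and vector cells are the controls, n = 2. Each library of a construct is 1 independent clone, and the vector cells are not stated to be a clone, so that an effect of growing a clone and one of its construct cannot be told apart against the controls. The labels give no serum condition, density or time of harvest. Levels are in RPKM, read counts scaled to transcript length and library size, so genes of different length can be compared.

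Immediate-early genes are transcribed within minutes of a stimulus without new protein synthesis. Growth factors and depolarization reach them through the MAPK cascade, calcium and cAMP, which act on factors already bound at their promoters, such as SRF with its ETS partners and CREB. EGR factors and NR4A receptors then carry the response to later genes. In fibroblasts they are best known from serum stimulation, and in neurons Npas4 and Arc are classical markers of synaptic activity.

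Library facts bear on all of the results. The summed RPKM of a library ran from 794682 to 944602, and 12696 to 13172 rows reached 1 RPKM. Both mitochondrial rows were listed at 0 in FOXP2 clones 2 and 4 and FOXP2-CPED1 clone 3. The mouse Foxp2 row stood at 0.0798 and 0.0785 RPKM in parental and vector cells, between 0.145 and 1.02 in the FOXP2 clones and between 0.0674 and 0.330 in the FOXP2-CPED1 clones. The mouse Cped1 row stood at 24.2 and 27.0 RPKM in parental and vector cells. It ran from 6.43 to 31.0 in the FOXP2 clones and from 6.69 to 25.4 in the FOXP2-CPED1 clones. Which species the introduced sequences come from is not given in the sources used, and these rows do not check the labels. Of 9 fibroblast markers, 8 have a row and all 8 reached 1 RPKM, with a sum of 9009 to 9116 RPKM in the controls, 5945 to 8326 with FOXP2 and 6378 to 8967 with FOXP2-CPED1. Of 9 neuronal markers 2 have a row, Slc17a7 and Camk2a, with a sum of 3.36 to 6.41, 4.51 to 10.3 and 3.89 to 10.5 RPKM in the same order. Epithelial Cdh1 ranged from 0.584 to 2.37 RPKM over the libraries and endothelial Cdh5 from 0.0182 to 0.536, and of 6 immune markers 0 have a row of their own. The part of these lists in the results was not tested.

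In the controls the most abundant of the 9 genes was Nr4a1 at 315.8 ± 1.79 RPKM (SD, n = 2), followed by Egr1 at 176.9 ± 3.74, Ier2 at 144.4 ± 2.62 and Ier3 at 114.7 ± 4.11. Egr3 at 51.9 ± 3.98 and Egr2 at 47.4 ± 2.98 came next and did not differ beyond their spread. Npas4 at 10.7 ± 0.448, Arc at 8.92 ± 0.576 and Nr4a2 at 3.39 ± 0.324 were the lowest. Parental and vector cells were close for every gene, with a ratio of vector to parental from 0.873 for Nr4a2 to 1.11 for Egr3. With 1 library each this has no test. Of all 12842 rows tested, 2.3% differed at least 2-fold between these libraries, and 0 of the 9 genes did.

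The order of levels was different in the clones. With FOXP2, Ier3 (96.1 ± 26.5 RPKM, SD, n = 4) and Ier2 (84.4 ± 14.5) were the highest, with overlapping spreads, then Egr1 (57.7 ± 20.5) and Nr4a1 (37.8 ± 31.7), again overlapping, and then Egr2 (6.86 ± 3.18) and Egr3 (5.47 ± 4.00). With FOXP2-CPED1 the order was the same at the top: Ier3 (80.8 ± 19.1), Ier2 (63.4 ± 22.9), Egr1 (29.7 ± 9.65), Nr4a1 (21.4 ± 4.52). Nr4a2 stood at 3.16 ± 0.903 and 3.10 ± 0.913 RPKM, now above Arc at 1.08 ± 0.405 and 1.07 ± 0.269 and Npas4 at 0.751 ± 0.583 and 1.01 ± 0.146.

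**Figure D1:**
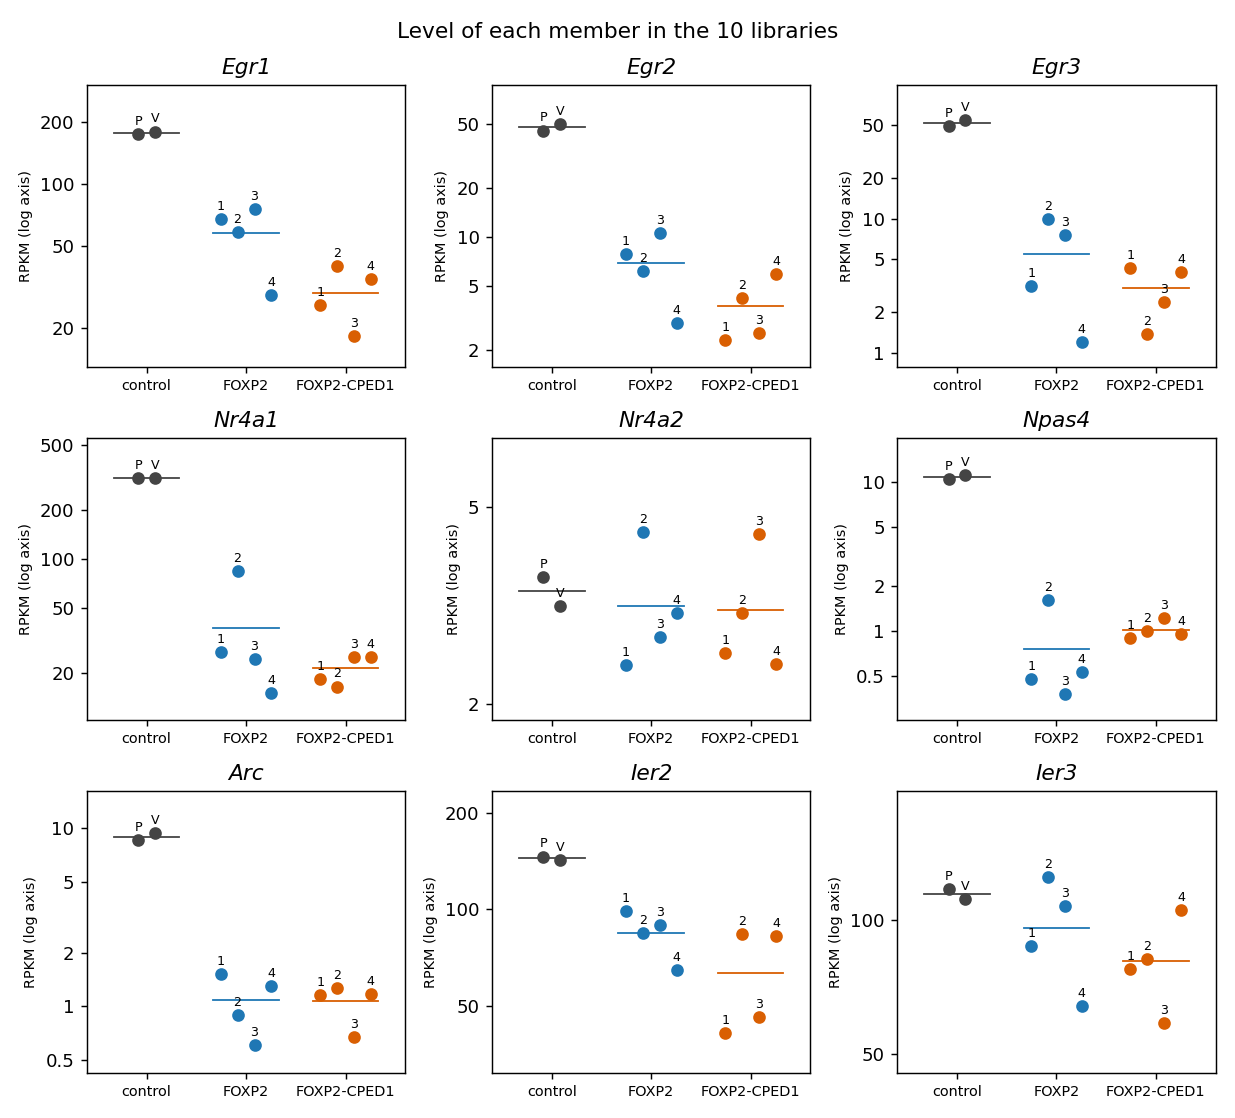
RPKM (log axis) of the 9 genes in each library, with parental (P) and vector (V) cells as the controls and clones numbered 1 to 4 within a construct; horizontal lines are group means. For 7 genes all 8 clones lie below both controls; Nr4a2 and Ier3 overlap with them.

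The EGR factors bind GC-rich promoter elements through 3 zinc fingers. Egr1, the member most often used as a readout of growth factor signalling, had 174.3 RPKM in the parental library and 179.6 in the vector library. The FOXP2 clones, numbers 1 to 4 here and in every such series, had 67.6, 58.4, 75.8 and 28.8 RPKM. The FOXP2-CPED1 clones had 25.8, 40.1, 18.3 and 34.7 RPKM. All clones were below the controls, the highest at 43.5% of the lower control, and FOXP2 clone 4 lay among the FOXP2-CPED1 clones. The log2 fold change, here and throughout on the log2(RPKM + 1) scale, which understates the change of low genes, was -1.69 ± 0.38 (standard error) with FOXP2 and -2.59 ± 0.38 with FOXP2-CPED1. In bulk RNA, fewer cells with a transcript and less of it per cell cannot be told apart.

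Egr2, known for its role in myelinating Schwann cells and hindbrain patterning, had 45.3 RPKM in the parental library and 49.6 in the vector library. Its levels were 7.83, 6.17, 10.5 and 2.93 RPKM among FOXP2 clones, against 2.31, 4.21, 2.54 and 5.86 among FOXP2-CPED1 clones. Every clone was below both controls, and the constructs overlapped. The log2 fold change was -2.73 ± 0.41 with FOXP2 and -3.42 ± 0.41 with FOXP2-CPED1. Egr3, a close relative with a role in muscle spindles, had 49.0 and 54.7 RPKM in the controls. Its FOXP2 clones had 3.16, 9.93, 7.59 and 1.20 RPKM and its FOXP2-CPED1 clones 4.31, 1.38, 2.40 and 4.00. Among the 9 genes it had the widest range across clones, 8.29-fold from FOXP2 clone 4 to FOXP2 clone 2. Its log2 fold changes were -3.29 ± 0.57 and -3.79 ± 0.57.

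The NR4A receptors are nuclear receptors without a known classical ligand pocket, controlled mainly by their transcription. Nr4a1 (also Nur77) had 317.1 RPKM in the parental library and 314.6 in the vector library. Levels were 27.0, 84.7, 24.3 and 15.1 RPKM among FOXP2 clones, against 18.5, 16.6, 25.2 and 25.2 among FOXP2-CPED1 clones. FOXP2 clone 2 was the highest clone, at 26.9% of the lower control, and the other clones of both constructs lay together. The log2 fold changes were -3.33 ± 0.52 and -3.85 ± 0.52. Its paralog Nr4a2 (Nurr1), known for its role in dopamine neurons, had 3.62 and 3.16 RPKM in the controls, with 2.40, 4.45, 2.73 and 3.05 among FOXP2 clones and 2.53, 3.05, 4.40 and 2.41 among FOXP2-CPED1 clones. The groups overlapped, with 6 of 8 clones below both controls. Its log2 fold changes were -0.10 ± 0.24 (95% interval -0.64 to 0.44) and -0.12 ± 0.24 (-0.66 to 0.42).

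Npas4, a calcium-dependent factor with a PAS domain, had 10.4 and 11.0 RPKM in the controls. The FOXP2 clones had 0.475, 1.62, 0.376 and 0.532 RPKM and the FOXP2-CPED1 clones 0.890, 1.0, 1.22 and 0.945. The clones were all below the controls, FOXP2 clone 2 being the highest at 15.6% of the lower control. Npas4 reached 1 RPKM in 4 of the 10 libraries, 2 of them the controls. The log2 fold changes were -2.79 ± 0.26 and -2.54 ± 0.26. Arc, a capsid-like protein that acts on glutamate receptor trafficking, had 8.51 and 9.33 RPKM in the controls. Levels were 1.51, 0.895, 0.607 and 1.30 among FOXP2 clones, against 1.16, 1.27, 0.673 and 1.17 among FOXP2-CPED1 clones. The log2 fold changes were -2.28 ± 0.22 and -2.27 ± 0.22, and the constructs lay on top of each other. A joined row of Arc with its neighbour Mroh4, from 0.303 to 1.45 RPKM across libraries, was not added, and its share of Arc reads is not known.

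Ier2, a nuclear regulator of transcription, had 146.3 and 142.6 RPKM in the controls. The FOXP2 clones had 99.1, 84.7, 89.1 and 64.5 RPKM and the FOXP2-CPED1 clones 41.1, 84.0, 46.1 and 82.4. All clones were below the controls, but by less than for the EGR factors: the highest clone was at 69.5% of the lower control. The log2 fold changes were -0.79 ± 0.30 and -1.25 ± 0.30. Ier3, an anti-apoptotic stress and NF-kB target, had 117.6 and 111.8 RPKM in the controls. Levels were 87.4, 125.4, 107.8 and 64.0 among FOXP2 clones, against 77.6, 81.7, 58.8 and 105.2 among FOXP2-CPED1 clones. FOXP2 clone 2 was above both controls. The log2 fold changes were -0.29 ± 0.28 (95% interval -0.91 to 0.32) and -0.53 ± 0.28 (-1.14 to 0.08).

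**Figure D2:**
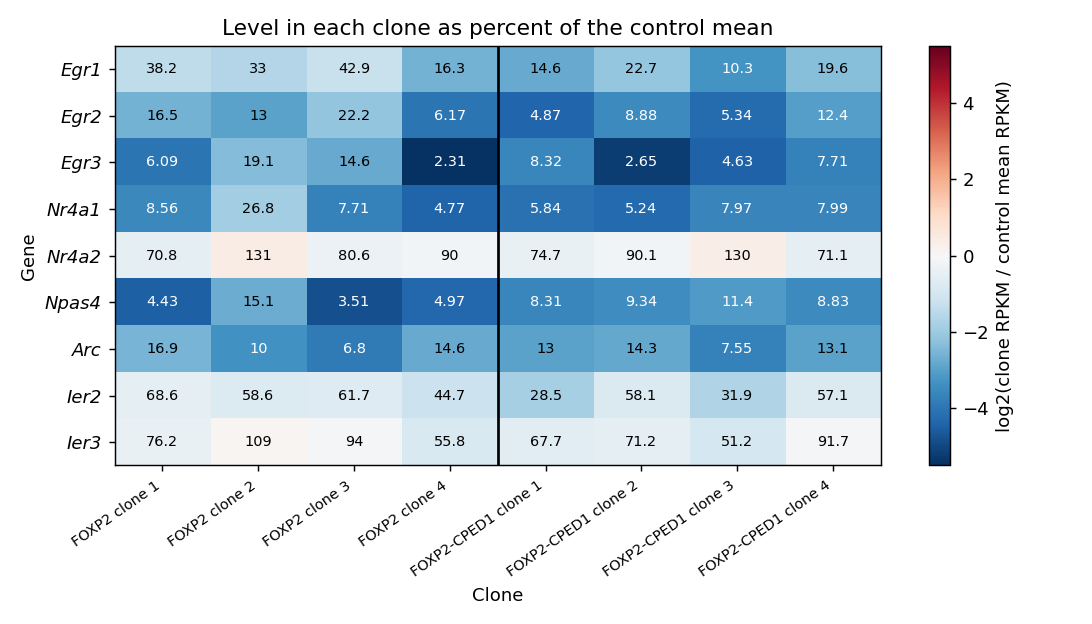
RPKM of each gene (rows) in each of the 8 clones (columns) as percent of the mean of the 2 controls, printed in the cells and coloured by its log2. Egr2, Egr3, Nr4a1 and Npas4 reach below 5% in at least 1 clone, while Nr4a2 runs from 70.8 to 131% and Ier3 from 51.2 to 109%.

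Of the 9 genes, 5 passed limma's test over all rows (adjusted p under 0.05) as lower with FOXP2 (Egr2, Egr3, Nr4a1, Npas4 and Arc), where 0.436% of all rows passed in either direction and 0.397% as lower. With FOXP2-CPED1 6 passed (these and Egr1), where 0.35% of all rows passed and 0.327% as lower. The groups did not overlap for 7 and 8 of the 9, against 10.4% and 13.3% of all rows on the lower side, and for 7 all 8 clones were below both controls, as for 6.38% of all rows. Since these contrasts brought the genes into view, nothing is read from the counts, and both contrasts share their controls. The median log2 fold change of the 9 was -2.28 with FOXP2 and -2.54 with FOXP2-CPED1, beside 0.02 and 0.00 over all rows. Without the parental library, or without the vector library, 0 of the 9 passed limma's test in either contrast, while the medians were -2.33 and -2.22 with FOXP2 and -2.58 and -2.50 with FOXP2-CPED1. The control arm then holds 1 library, which is assumed to vary like the clones, since the spread comes from the clones only. With FOXP2 the calls numbered 2 without FOXP2 clone 1 and 3 without FOXP2 clone 3, without FOXP2 clone 4, and without FOXP2-CPED1 clone 1, 2 or 3; with FOXP2-CPED1 they numbered 3 without FOXP2-CPED1 clone 1 or 2. When the 3 libraries with both mitochondrial rows at 0 were dropped they numbered 3 with FOXP2 (median -2.26) and 6 with FOXP2-CPED1 (median -2.39). The number of genes called in the whole table also changed with the libraries left out, as given with the processing alternatives below. A drop in the calls is therefore not read as particular to the 9.

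Promoters are shown for 5 of the genes, those with a strong difference (Egr2, Nr4a1 and Npas4) beside those that overlapped with the controls (Nr4a2 and Ier3), to set their known inputs side by side. Each is the 250 bases before an annotated start, 5′ to 3′ on the gene's strand, from RefSeq on GRCm38.p6, a later build than the one of the files. The copy of RefSeq's promoters used here gave windows for 6 of the 10 genes. Capitals mark the CRE core TGACG, part of the CREB site, and the CArG box, the site of SRF, on either strand. Egr2 has 5 annotated starts, and the window of the third, chosen after its motifs were seen, is shown.
Egr2, chr10:67537619-67537868, plus strand: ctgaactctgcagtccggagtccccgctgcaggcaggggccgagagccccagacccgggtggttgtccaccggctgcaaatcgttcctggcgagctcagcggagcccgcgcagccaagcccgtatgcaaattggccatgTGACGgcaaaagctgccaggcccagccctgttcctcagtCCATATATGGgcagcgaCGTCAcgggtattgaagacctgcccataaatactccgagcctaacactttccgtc
Nr4a1, chr15:101266596-101266845, plus strand: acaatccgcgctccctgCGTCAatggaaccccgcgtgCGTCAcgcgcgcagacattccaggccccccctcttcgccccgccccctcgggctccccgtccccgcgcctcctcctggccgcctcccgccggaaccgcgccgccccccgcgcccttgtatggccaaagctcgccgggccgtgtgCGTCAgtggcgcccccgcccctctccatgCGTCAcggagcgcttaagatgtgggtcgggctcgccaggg
Npas4, chr19:4989972-4990221, minus strand: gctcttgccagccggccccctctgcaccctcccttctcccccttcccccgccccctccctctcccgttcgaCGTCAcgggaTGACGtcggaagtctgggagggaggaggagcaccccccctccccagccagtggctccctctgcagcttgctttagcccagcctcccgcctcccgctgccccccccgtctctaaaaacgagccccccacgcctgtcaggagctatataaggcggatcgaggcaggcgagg
Nr4a2, chr2:57124004-57124253, minus strand: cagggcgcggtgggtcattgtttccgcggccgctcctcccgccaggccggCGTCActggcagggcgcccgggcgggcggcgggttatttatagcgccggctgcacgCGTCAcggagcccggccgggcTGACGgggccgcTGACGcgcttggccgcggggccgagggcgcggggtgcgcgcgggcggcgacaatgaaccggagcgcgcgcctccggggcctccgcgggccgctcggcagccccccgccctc
Ier3, chr17:35821463-35821712, plus strand: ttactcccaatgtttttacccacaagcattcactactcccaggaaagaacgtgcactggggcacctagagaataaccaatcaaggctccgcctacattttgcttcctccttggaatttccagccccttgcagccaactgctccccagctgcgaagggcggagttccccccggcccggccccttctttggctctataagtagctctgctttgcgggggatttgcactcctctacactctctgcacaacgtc

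The window of Egr2 holds 1 CArG box, 72 bases before the start, and CRE cores at 111 and 55 bases. The windows of the first and the second Egr2 start hold no CRE core, and the second has a CArG box. Nr4a1 has 4 CRE cores, at 233, 213, 69 and 40 bases before the start, and Npas4 has 2, at 179 and 169. Nr4a2 also has 4, at 200, 144, 123 and 111, while Ier3 has 0. Nr4a1 and Nr4a2 carry the same number, and whether these letters bear on the levels was not tested. Of all 32851 windows of this length in the table, 17.8% hold a CRE core, 3.9% hold at least 2, and 1.47% hold a CArG box. The full CRE TGACGTCA (1.55% of windows, overlapping the core), the EGR site GCGTGGGCG (0.536%) and the forkhead core TGTTTAC (3.17%), searched on both strands, had no match in the 5 windows shown, and the EGR form GCGGGGGCG (2.57%) had 1, in Nr4a1, 60 bases before the start. Such matches describe letters in these windows only.

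The constructs were compared directly, with 4 clones each. For 7 of the 9 genes the mean log2 level was lower with FOXP2-CPED1, and Npas4 and Arc were on the other side. By limma 0 of the 9 passed, as did 0% of all rows, and 1 of the 9, Egr1, had an unadjusted p under 0.05, as had 2.16% of all rows. Egr1 differed by -0.91 ± 0.31 (95% interval -1.60 to -0.21; adjusted p = 0.9998, limma), from 57.7 ± 20.5 RPKM with FOXP2 to 29.7 ± 9.65 with FOXP2-CPED1, and its clones overlapped. No gene of the 9 had FOXP2-CPED1 clones all below the FOXP2 clones, as 0.802% of all rows had. This contrast shares its clones with the ones that were known. For Egr2 the interval was -1.44 to 0.05, for Nr4a1 -1.45 to 0.42 and for Egr3 -1.54 to 0.54, so differences of over 2-fold on the lower side lie within them. The intervals were narrower for Arc, -0.40 to 0.41, and Nr4a2, -0.46 to 0.42. Ier2 (-1.01 to 0.08), Ier3 (-0.73 to 0.27) and Npas4 (-0.21 to 0.72) lay between. The median over the 9 was -0.46, beside -0.01 over all rows, and it was -0.09 without FOXP2 clone 2.

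**Figure D3:**
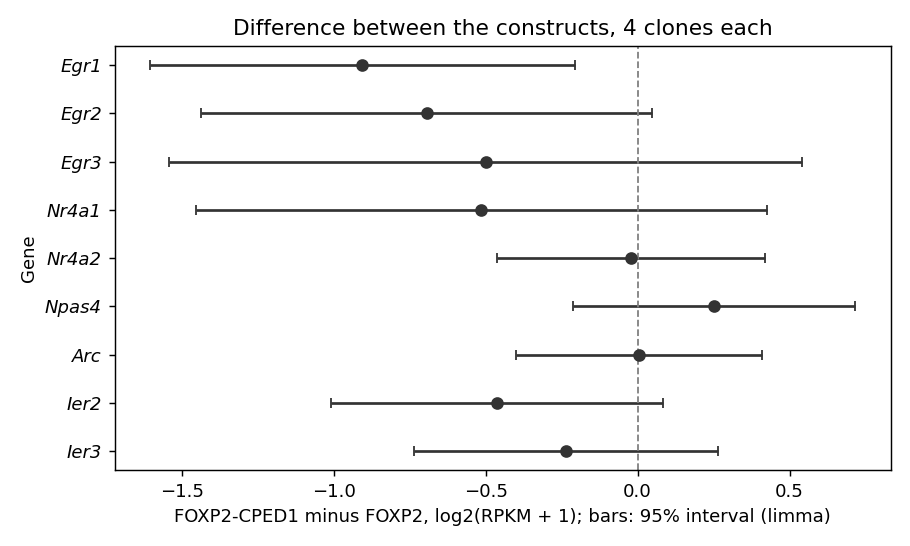
Difference between the constructs for each gene, FOXP2-CPED1 minus FOXP2 in log2(RPKM + 1), with points for the limma estimate and bars for its 95% interval (4 clones each). Egr1 alone has an interval that leaves out 0, and it does not pass after adjustment over all rows.

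Clones of one construct differed from each other, and by more for the EGR factors and Nr4a1 than for most genes of like mean level in the clones. The SD within constructs on the log2(RPKM + 1) scale was 0.83 for Egr3, 0.75 for Nr4a1, 0.58 for Egr2 and 0.55 for Egr1. Of the rows with a mean over the 8 clones within 2-fold of theirs, 93.7%, 96.4%, 86.7% and 90.8% had a lower SD. Ier2 (0.42; 79.3%) and Ier3 (0.38; 73.0%) followed. Nr4a2 (0.30; 44.3%), Npas4 (0.31; 42.1%) and Arc (0.25; 25.1%) were below the middle, at levels where the added 1 RPKM narrows the scale. Nr4a1 had an SD of 1.02 among FOXP2 clones and 0.30 among FOXP2-CPED1 clones, a difference that was not tested. FOXP2 clone 2 held the highest of the 8 clone values for 5 genes (Egr3, Nr4a1, Nr4a2, Npas4 and Ier3).

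The genes were compared pair by pair across the 8 clones, to see whether the same clones were high. Of 36 pairs, 23 had a positive Pearson's r, with a median of 0.21 (0.24 with each construct's mean removed). Of these pairs, 2 passed after Benjamini-Hochberg adjustment of exact two-sided permutation p-values. The permutations ran over all 8 clones without regard to construct, so a difference between the constructs enters these p-values. The r within constructs carries no test. Egr1 and Egr2 had r = 0.93 and rho = 0.95 (exact permutation p = 0.00191 and 0.00114, adjusted 0.0496 and 0.0137, n = 8). With construct means removed r was 0.90, and without the 2 clones farthest from the median of Egr1 it was 0.89. Egr2 and Ier2 had r = 0.87 and rho = 0.95 (exact permutation p = 0.00275 and 0.00114, adjusted 0.0496 and 0.0137), with r = 0.81 within constructs and 0.90 without the 2 farthest clones. Egr1 and Ier2 passed by rho only (0.95, adjusted p = 0.0137, exact permutation), with r = 0.86 (p = 0.00432, adjusted 0.0518), 0.80 within constructs and 0.81 without the 2 farthest clones.

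Other pairs did not pass. Egr3 and Nr4a1 had r = 0.77 and rho = 0.62 (exact permutation p = 0.0099 and 0.115, adjusted 0.0891 and 0.433, n = 8). Without the 2 clones farthest from the median of Egr3, r was 0.41. Leaving out the extremes of a gene narrows its range, which can lower r by itself, so nothing is read from this fall. The median r within constructs was 0.02 without FOXP2 clone 2, 0.11 without FOXP2 clone 4 and 0.13 without the 3 libraries with mitochondrial rows at 0. FOXP2 clone 4, the lowest FOXP2 clone for Egr1, Egr2, Egr3, Nr4a1, Ier2 and Ier3, and FOXP2 clone 2, the highest clone for 5 genes, are both among those 3 libraries.

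Genes with a pattern most like the mean of the 9 across the clones, with construct means removed, were named from 1107 single-gene rows by Pearson's r, n = 8 clones. Among the 8 highest were Prr5 (r = 0.96, rho = 0.98), a subunit of the mTORC2 kinase complex, Phlda1 (0.94, 0.93), Dusp6 (0.92, 0.83), a phosphatase of ERK, Lhx6 (0.91, 0.83), a LIM homeobox factor, Trib1 (0.90, 0.81), a pseudokinase, and the predicted genes Gm17045 (0.90, 0.81) and Gm17046 (0.88, 0.79). Having been picked as the highest of 1107, they carry no test, and libraries are shared by all points. Phlda1, a growth factor-induced gene with a pleckstrin homology-like domain, stood at 75.5 ± 3.78 RPKM in the controls (n = 2), 17.9 ± 8.84 with FOXP2 and 12.8 ± 3.82 with FOXP2-CPED1 (n = 4 each). It fell with FOXP2-CPED1 (log2 fold change -2.51, adjusted p = 0.0313, limma) and did not pass with FOXP2 (-2.14, adjusted p = 0.0677). Trib1 stood at 73.8 ± 1.77, 27.2 ± 11.0 and 20.6 ± 4.08 RPKM and Dusp6 at 52.9 ± 1.54, 27.2 ± 16.4 and 17.2 ± 5.93, neither of which passed. Prr5 and Lhx6 had means above the control in both constructs: Prr5 stood at 4.28 ± 0.0134, 5.89 ± 3.29 and 7.13 ± 1.97 RPKM, and Lhx6 at 4.79 ± 0.653, 5.46 ± 2.74 and 5.23 ± 0.892.

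**Figure D4:**
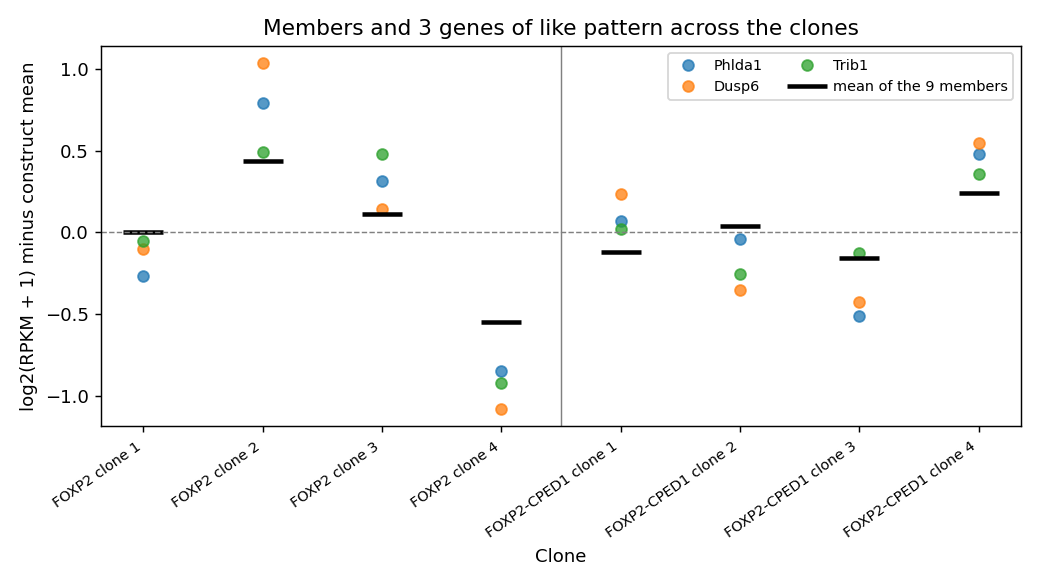
Deviation of each clone from its construct's mean, in log2(RPKM + 1), for the mean of the 9 genes (black bars) and for Phlda1, Dusp6 and Trib1 (points). FOXP2 clone 2 is high and FOXP2 clone 4 low for all of them. Prr5, the gene of the highest r, and Lhx6, both with means above the control, are not drawn.

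Other immediate-early genes were followed in lists. These lists, too, were drawn up with results of these libraries known. Of 28 further immediate-early factors and regulators, 26 were tested by limma. With FOXP2 0 passed, beside 0.436% of all rows, and 10 had an unadjusted p under 0.05, as had 8.52% of all rows. With FOXP2-CPED1 1, Fosb, fell, beside 0.35% of all rows called, and 13 had an unadjusted p under 0.05, as had 7.28% of all rows. The median log2 fold change was -0.47 and -0.77, and 26 and 24 of the 26 were negative. The AP-1 subunit Fosb stood at 28.5 ± 0.614 RPKM in the controls, 6.28 ± 3.36 with FOXP2 (adjusted p = 0.0664, limma) and 3.32 ± 1.27 with FOXP2-CPED1 (adjusted p = 0.0197). Btg2, an antiproliferative gene, stood at 39.2 ± 0.397, 13.4 ± 2.71 (adjusted p = 0.227) and 8.86 ± 5.32 (adjusted p = 0.0670). The clock gene Per1 stood at 28.7 ± 1.33, 12.3 ± 2.46 and 12.8 ± 4.93, and Ier5, a relative of Ier2, at 58.9 ± 0.428, 26.2 ± 9.51 and 25.3 ± 6.14, neither past the threshold. All 8 clones were below both controls for 9 of the 26, as for 6.38% of all rows. These 4 genes, named for their small p, were among the 9. Fos, named here after its values were seen, stood at 14.2 ± 0.366, 15.4 ± 9.14 and 7.95 ± 3.17 RPKM, with log2 fold changes of -0.04 and -0.83.

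Of 31 signalling and secreted immediate-early genes, 28 were tested. With FOXP2, 2 fell, Thbs1, a matrix glycoprotein, and F3, the tissue factor, and with FOXP2-CPED1 1 fell, F3, beside 0.436% and 0.35% of all rows called. At an unadjusted p under 0.05 by limma there were 13 and 14, beside 8.52% and 7.28% of all rows, and the medians were -1.13 and -1.18. Thbs1 stood at 169.9 ± 13.6 RPKM in the controls, 10.8 ± 6.10 with FOXP2 (log2 fold change -4.03, adjusted p = 0.0167, limma) and 24.6 ± 8.35 with FOXP2-CPED1 (-2.82, adjusted p = 0.0670), all 8 clones below both controls. F3 stood at 433.3 ± 0.0481 RPKM in the controls and 73.3 ± 32.4 and 83.5 ± 22.1 in the clones. The matricellular gene Cyr61 stood at 737.5 ± 8.93, 168.9 ± 55.8 and 120.3 ± 72.5 without passing (adjusted p = 0.121 and 0.0506, limma). The stress genes Gadd45b (59.5 ± 7.44, 23.4 ± 7.31 and 25.7 ± 4.14) and Gadd45g (105.1 ± 8.83, 37.3 ± 9.63 and 38.5 ± 13.8) did not pass either. Of 14 MAPK feedback genes, 11 were tested and 0 passed in either contrast by limma, beside 0.436% and 0.35% of all rows. In each contrast 5 had an unadjusted p under 0.05 by limma, beside 8.52% and 7.28% of all rows. Their medians were -0.43 and -1.0. Errfi1, an inhibitor of the EGF receptor, stood at 90.3 ± 0.0341, 20.1 ± 11.2 and 17.9 ± 5.27 RPKM (adjusted p = 0.0885 and 0.0830), and the phosphatases Dusp5 at 87.5 ± 8.39, 19.2 ± 16.3 and 15.5 ± 3.77 and Dusp8 at 10.1 ± 0.0880, 5.60 ± 2.29 and 3.48 ± 1.12.

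Among 26 tested genes of 32 upstream kinases and factors, 1 passed in each contrast, Srf, beside 0.436% and 0.35% of all rows, and the medians were -0.01 and 0.01. Srf, the serum response factor, stood at 53.4 ± 4.32 RPKM in the controls, 13.0 ± 2.83 with FOXP2 (log2 fold change -1.98, adjusted p = 0.00289, limma) and 12.3 ± 2.05 with FOXP2-CPED1 (-2.04, adjusted p = 0.00594). The kinases Rps6ka3 (17.9 ± 1.31, 34.3 ± 15.6 and 26.0 ± 4.15) and Rps6ka2 (4.49 ± 0.00929, 7.29 ± 1.75 and 5.84 ± 0.930), which phosphorylate CREB and SRF downstream of ERK, and the factors Mef2c (2.47 ± 1.23, 5.19 ± 2.38 and 4.92 ± 1.12) and Mef2d (43.7 ± 1.19, 38.4 ± 5.12 and 33.5 ± 5.44) did not pass. Of the partners and co-repressors of EGR and NR4A factors, 5 of 7 were tested. By limma 0 passed in either contrast, beside 0.436% and 0.35% of all rows. Nor did any at an unadjusted p under 0.05, beside 8.52% and 7.28% of all rows. With 5 genes at such shares nothing is read from these counts. Nab2, a co-repressor that EGR factors themselves induce, stood at 59.7 ± 2.63, 42.5 ± 9.79 and 52.2 ± 20.5 RPKM. Nab1 stood at 24.9 ± 1.81, 28.7 ± 1.85 and 25.5 ± 1.47, the retinoid receptor Rxra at 21.5 ± 0.467, 19.0 ± 3.84 and 18.6 ± 3.20, and Arnt2, the partner of Npas4, at 2.13 ± 0.106, 1.61 ± 0.296 and 1.59 ± 0.318.

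Heat shock genes were included as markers of culture stress. Of 11, 9 were tested and 0 passed by limma in either contrast, beside 0.436% and 0.35% of all rows. An unadjusted p under 0.05 by limma was found for 1 with FOXP2 and 2 with FOXP2-CPED1, beside 8.52% and 7.28% of all rows. Their medians were 0.15 and 0.02. Bag3 stood at 59.0 ± 1.41 RPKM in the controls, 41.7 ± 5.43 with FOXP2 and 45.6 ± 3.02 with FOXP2-CPED1, Dnajb1 at 47.6 ± 2.10, 37.6 ± 2.49 and 35.5 ± 8.81, Hsph1 at 57.6 ± 8.37, 85.2 ± 22.3 and 72.7 ± 15.8, and Hspd1 at 176.1 ± 7.04, 283.2 ± 127.2 and 254.2 ± 104.2.

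**Figure D5:**
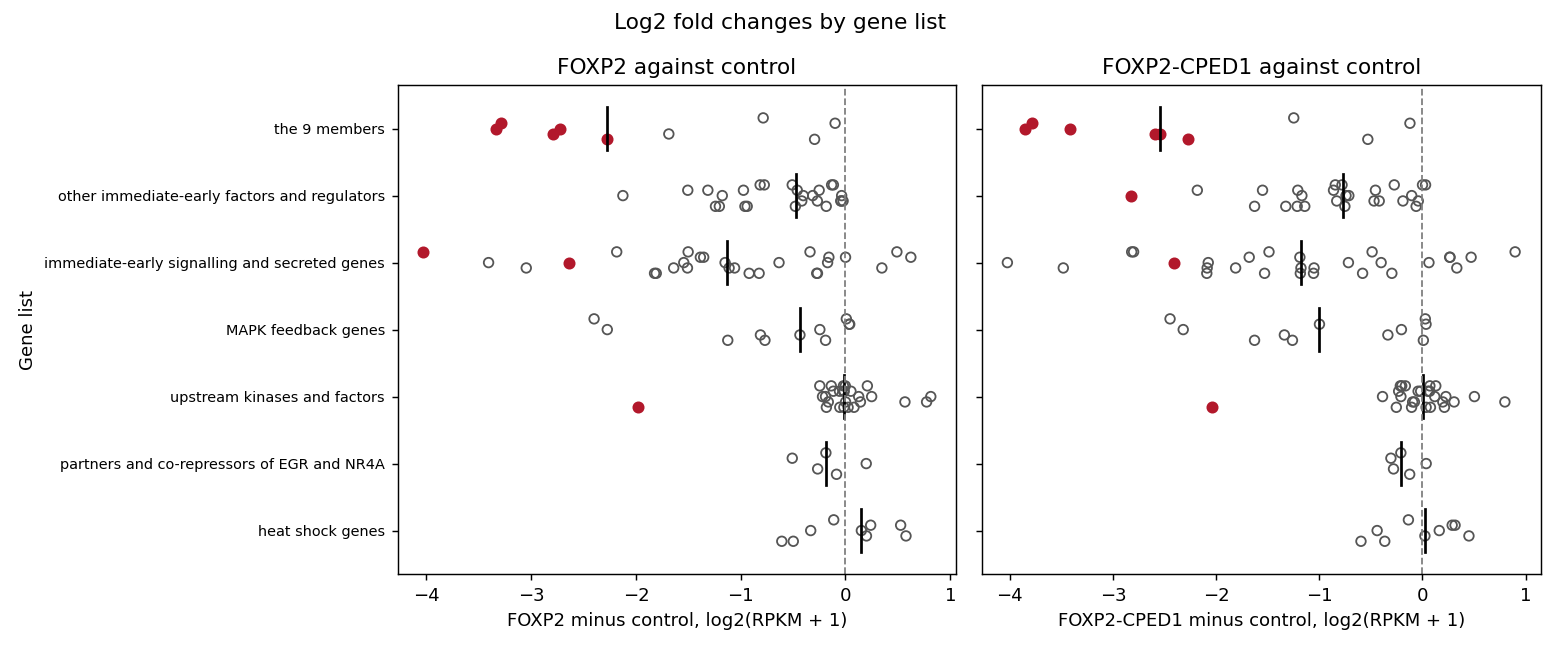
Log2 fold change against the control on the log2(RPKM + 1) scale (x axis) for the tested genes of each list (y axis), with FOXP2 on the left and FOXP2-CPED1 on the right; filled red points passed limma's test, open ones did not, and black bars are medians. The 9 genes have medians of -2.28 and -2.54, while the medians of upstream kinases and factors are -0.01 and 0.01, with single genes on both sides, Srf the farthest.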

How the data were processed

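RNA was measured in 10 NIH3T3 libraries. The authors deposited 1 table of RPKM values each column 1 library as its header names it, per the file headers; HISAT2, StringTie and mm9 are named in the submitters' processing notes, while their versions, the annotation, strand use and filters are not given there. Reads of overlapping genes may therefore be split or shared. The 3581 rows that name no gene were left out. Absolute depth is unknown, so values carry no counting interval. Spearman correlations between libraries ran from 0.936 to 0.980, and 0 pairs were identical.

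Rows at 1 RPKM in at least 2 libraries (12842) were fitted as log2(RPKM + 1) with limma 3.58.1 in R 4.3.3, with 3 arms over all 10 libraries, empirical Bayes moderation and a trend, two-sided, with Benjamini-Hochberg adjustment over all rows. The spread behind a p-value is that between clones or cultures, in part perhaps technical. A single estimate of it is shared by the 3 arms and comes mostly from the clones. The controls are thus assumed to vary like the clones in every fit. The genes and lists were chosen with earlier results of these data known. List genes were named by rule, as the 4 smallest p with FOXP2 and the 2 smallest with FOXP2-CPED1; correlations used exact permutations in Python 3.11.15. Alternatives were pseudocounts of 0.1 and 0.25, other filters, scalings and variance models, library weights, a replicate block, summed rows and left-out libraries; those of the clone correlations and of the overlap counts were chosen after seeing the data. Of the 8 genes taken by rule as most alike in pattern, 1 is not reported here.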

Additional observations from a re-analysis of the deposited data

Results flagged for a closer look

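Npas4 in FOXP2 clone 2, at 1.62 RPKM, lay apart from the other FOXP2 clones (0.376 to 0.532 RPKM), by a gap over Dixon's 95% critical value for 4 samples. It was the only one found in 18 groups of 4 clones tested (9 genes in 2 constructs), where chance flags about 1 in 20. In this library both mitochondrial rows were listed at 0, and it was also the highest clone for Nr4a1 (84.7 RPKM), Egr3 (9.93 RPKM) and Ier3 (125.4 RPKM); the part of the library in these values was not tested.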

How the results depend on the processing

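Every gene of the 9 kept its direction against the control under all alternatives: of 186 values with FOXP2, 152 kept their side of the threshold, 33 lost it and 1 gained it, and with FOXP2-CPED1 162 kept it, 22 lost it and 2 gained it. Between the constructs no gene passed in any of 195 values, and 12 turned sign. With a pseudocount of 0.1 the medians over the 9 genes were -2.91 with FOXP2 and -2.98 with FOXP2-CPED1, and 37 and 28 genes of the table were called in place of 56 and 45; with 0.25 the medians were -2.84 and -2.82. A filter on a mean of 5 RPKM, which drops Nr4a2, Npas4 and Arc, left 3 of the genes called with FOXP2 and 4 with FOXP2-CPED1. Of the 9447 rows then tested, 40 and 31 were called. The medians were -2.21 and -3.01, and each gene that stayed kept its side of the threshold. Library quality weights called 2095 genes of the table with FOXP2, 929 with FOXP2-CPED1 and 4 between the constructs. Fitting only the arms compared called 2 of the 9 and 9 genes of the table with FOXP2; dropping the 3 libraries that list 0 for both mitochondrial rows called 3 and 23. The cause was not tested.

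Leaving out 1 library at a time gave 0 to 4 of the 9 called with FOXP2 and 0 to 6 with FOXP2-CPED1, over 2 to 64, 0 to 57 and, between the constructs, 0 to 1 genes of the table. The median between the constructs then ran from -0.60 to -0.093, and the median correlation over the clones from 0.0214 to 0.362. Values near 0 turned sign between the constructs: Arc (0.00) was -0.047 under quantile normalization, -0.31 under quality weights and -0.11 to 0.10 with 1 library left out, and Nr4a2 (-0.02) was 0.32 under quality weights, 0.037 without those 3 libraries and -0.16 to 0.12 with 1 library left out. With the clone number as a replicate block over the 8 clones, 0 of the 9 and 0 genes of the table were called by limma and the median stayed at -0.46; same-numbered clones correlated at -0.0357, -0.24, 0.281 and 0.166, so the numbers were not taken to pair them. Absolute depth, being unknown, sets no stated limit.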

Other observations

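The second row of Egr1 did not share the pattern of the first. It held 7.73 RPKM in the parental library and 9.20 in the vector library, 13.3, 0.574, 5.69 and 1.40 in the FOXP2 clones, numbers 1 to 4, and 5.42, 13.5, 8.51 and 1.23 in the FOXP2-CPED1 clones. The clones lay on both sides of the controls. How the rows of 1 gene differ is not stated in the table. With both rows summed, Egr1 had log2 fold changes of -1.64 with FOXP2 and -2.35 with FOXP2-CPED1.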
